A study of Mus musculus with 6 samples.

Results

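The 9 genes described here encode carriers that move amino acids across the plasma membrane: Slc38a1, Slc38a2, Slc38a3, Slc1a4, Slc1a5, Slc1a3, Slc7a1, Slc7a5 and Slc3a2. They were chosen by gene symbol from the 24147 lines of the deposited gene tables, and all 9 were found and had enough counts to be tested among 13956 genes. RNA was sequenced from 6 libraries of lens capsule with the epithelial cells left attached to it, taken from wild-type C57BL/6 mice 2 months old whose lens fiber cells had been removed through a cut in the cornea. Tissue was collected 24 h after the operation (24 h, 3 libraries) or directly after it (0 h, 3 libraries), so the 0 h mice had also been operated on, and no unoperated lens is among the groups. The operation models human cataract surgery. The labels call the libraries of a time biological triplicates but do not state the number of mice or eyes per library, and p-values measure only the spread between these libraries, which may be partly technical.

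The lens has no blood vessels, and its epithelium takes amino acids from the aqueous humour for protein synthesis and for glutathione, the main antioxidant of the lens. SLC38 carriers and SLC1A4 and SLC1A5 bring in small neutral amino acids with sodium, SLC1A3 brings in glutamate and aspartate, and SLC7A1 brings in arginine and lysine. SLC7A5 exchanges large neutral amino acids such as leucine, and reaches the membrane bound to SLC3A2, a heavy chain shared by several light chains. In many cell types, shortage of amino acids raises the transcription factor ATF4, which drives genes for amino acid uptake, synthesis and charging onto tRNA.

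Summed gene counts were 8069314 to 9249248 per library at 24 h and 8734906 to 10862573 at 0 h, and the transporter genes had 215 to 4360 counts each in the 24 h libraries and 72 to 7646 in the 0 h libraries. Values are given as TMM-scaled CPM (counts scaled to a common library size) within a gene, and as the same values per kilobase of exonic length (RPKM) between genes. A gene is called changed when its adjusted p is under 0.05 in edgeR's quasi-likelihood test with Benjamini-Hochberg adjustment over all 13956 genes, and every adjusted p below comes from that test, or from a named variant of it. Coordinates are those of the deposited tables (mm10). Changes are log2 fold changes of 24 h over 0 h with their standard error (SE). Photoreceptor RNA was present in all 6 libraries, and its 9 markers summed to 1130 to 5086 CPM at 24 h and to 2059.5 to 6398 CPM at 0 h, with 0 of 9 called in either direction. The library 24 h replicate 1 held 15.4% of its counts in the ribosomal RNA gene Rn45s, against 2.44% to 5.04% in the other 5.

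Of the 9 transporter genes, 4 fell, 2 rose and 3 did not pass the test. Over all genes tested 28.2% were called, 15.2% higher and 13.0% lower. The 9 log2 fold changes had a median of -0.47, where all genes tested had -0.03. Those that fell were Slc38a2, Slc38a3, Slc1a3 and Slc1a4, each by 2.16-fold to 3.09-fold, and those that rose were Slc1a5 by 3.30-fold and Slc7a1 by 2.46-fold. For Slc38a1, Slc7a5 and Slc3a2 the test gave no call. The 24 h and 0 h libraries did not overlap for 7 of the 9 genes, as for 44.7% of all genes tested: 3 lay wholly above (22.9% of all genes) and 4 wholly below (21.8%). Fewer cells of a type and less RNA per cell cannot be told apart in these bulk samples.

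**Figure D1:**
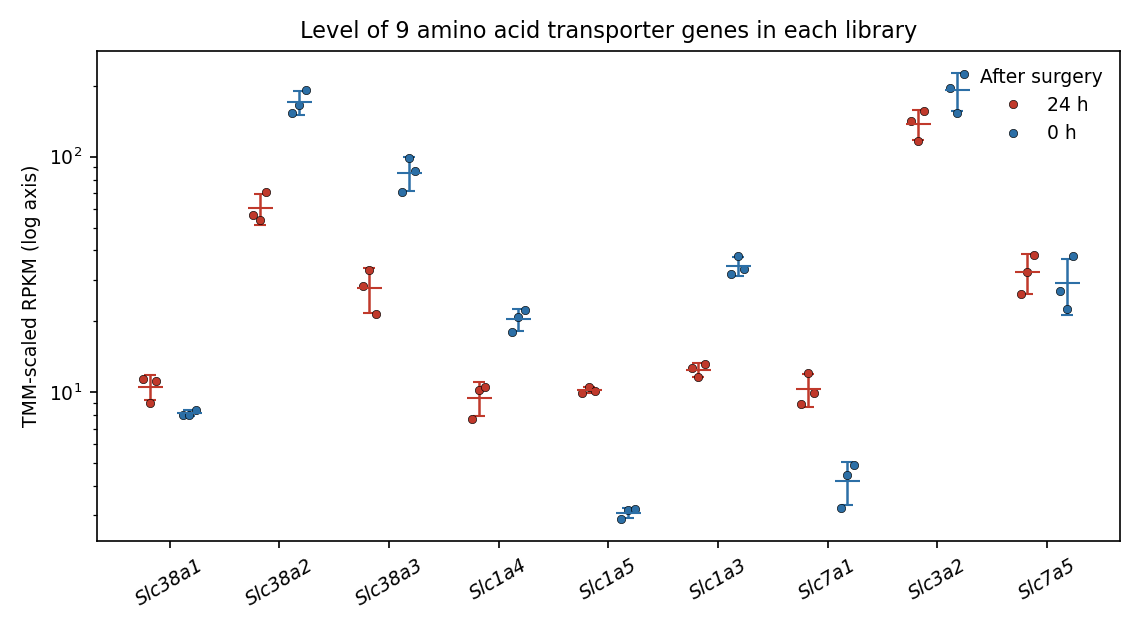
TMM-scaled RPKM (log axis) of the 9 transporter genes in each library at 24 h (red) and 0 h (blue), with points for libraries, a dash for the mean and bars for the SD (n = 3 each). Every 24 h library lies below every 0 h library for Slc38a2, Slc38a3, Slc1a4 and Slc1a3 and above it for Slc38a1, Slc1a5 and Slc7a1, while the libraries overlap for Slc3a2 and Slc7a5.

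**Figure D2:**
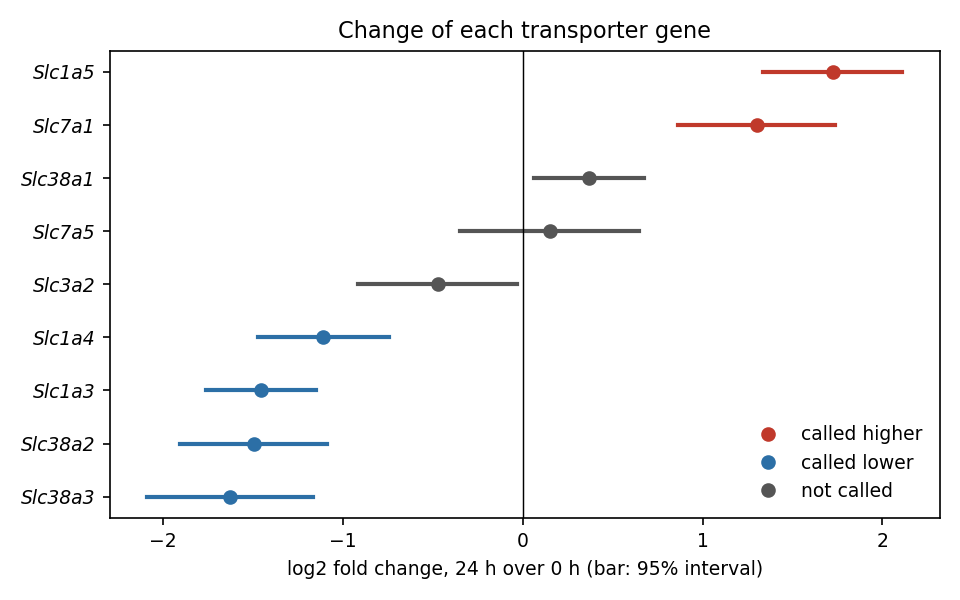
The log2 fold change (24 h over 0 h) of each transporter gene with its 95% interval, coloured by call. Slc1a5 and Slc7a1 lie to the right of 0, and Slc1a4, Slc1a3, Slc38a2 and Slc38a3 lie about as far to the left, at -1.11 to -1.63.

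Of the 3 SLC38 carriers, Slc38a2 and Slc38a3 fell and Slc38a1 was not called. Slc38a2, the sodium-coupled carrier of alanine, serine and glutamine that many cells raise when amino acids run short (chromosome 15, 96687392 to 96699698, minus strand), had 261, 249.8 and 329 CPM in the 24 h libraries, against 711, 766 and 892 CPM in the 0 h libraries. The highest 24 h library was thus below the lowest 0 h library, and the gene fell 2.82-fold (SE of the log2 change 0.18, adjusted p = 0.000649). Slc38a3, a carrier of glutamine, histidine and asparagine (chromosome 9, 107651155 to 107668968, minus strand), had 77.2, 90.4 and 58.4 CPM at 24 h, against 192, 269 and 238 CPM at 0 h. It fell by 1.63 ± 0.20 on the log2 scale (adjusted p = 0.000736), the steepest fall of the 9. Slc38a1, a close relative of Slc38a2 (chromosome 15, 96571418 to 96642913, minus strand), had 95.4, 75.8 and 93.6 CPM at 24 h, against 67.3, 67.1 and 70.8 CPM at 0 h. Its 24 h libraries all lay above its 0 h libraries, by 0.37 ± 0.13 on the log2 scale, but it was not called (adjusted p = 0.0733). It was called without 24 h replicate 2 (adjusted p = 0.0344) and with library totals only (adjusted p = 0.038), and its adjusted p ran from 0.0344 to 1.00 over 17 alternatives, the last in the test against a 1.5-fold change.

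Slc38a1 and Slc38a2 are neighbours on the same strand, 44478 bases apart. Slc38a2 fell, while Slc38a1 lay higher in every 24 h library without being called. Per kilobase, Slc38a1 made up 11.8%, 9.40% and 10.8% of the summed level of the 3 SLC38 genes in the 24 h libraries, against 3.46%, 2.94% and 2.92% in the 0 h libraries. The share of Slc38a3 in that sum was 20.7% to 34.5% at 24 h and 30.3% to 36.2% at 0 h, a difference within the spread between libraries (exact two-sided permutation test, p = 0.4). The Slc38a3 to Slc38a2 ratio was 0.503, 0.614 and 0.302 in the 24 h libraries and 0.459, 0.595 and 0.453 in the 0 h libraries, so the groups overlap (exact permutation p = 0.9), and the difference changed sign without 24 h replicate 3. The log2 difference of the ratio was -0.14, with -0.36 to 0.16 when single libraries were left out, so no difference in the size of the falls was detectable. The summed level of the 3 genes was 96.0, 96.2 and 104 RPKM in the 24 h libraries, against 232, 272 and 289 RPKM in the 0 h libraries. Slc38a1 itself had 10.5 ± 1.29 RPKM at 24 h and 8.15 ± 0.244 RPKM at 0 h (SD, n = 3 each). Its larger share thus came mostly with the lower sum.

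SLC1A4 and SLC1A5 are related sodium-dependent exchangers, with alanine, serine and cysteine as substrates of both and glutamine as a main substrate of SLC1A5. Slc1a5 (chromosome 7, 16781346 to 16798274, plus strand) had 27.5, 29.0 and 27.8 CPM in the 24 h libraries, against 8.02, 8.72 and 8.79 CPM in the 0 h libraries. The spread within each time was small beside the difference, and the gene rose by 1.72 ± 0.17 on the log2 scale (adjusted p = 0.000256). Slc1a4 (chromosome 11, 20302180 to 20332713, minus strand) had 30.3, 39.9 and 41.3 CPM at 24 h, against 70.9, 82.2 and 87.9 CPM at 0 h. It fell by 1.11 ± 0.16 on the log2 scale (adjusted p = 0.00156).

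The pair stood at near-equal levels at 24 h. Slc1a4 per Slc1a5, per kilobase, was 0.774, 0.968 and 1.04 in the 24 h libraries, against 6.22, 6.62 and 7.025 in the 0 h libraries. The log2 difference was -2.84, and -2.93 to -2.72 when single libraries were left out, with an exact two-sided permutation p of 0.1, the smallest that 3 against 3 libraries allow. Their summed level was 19.7 ± 1.71 RPKM at 24 h and 23.5 ± 2.34 RPKM at 0 h (SD, n = 3 each). The highest 24 h library, at 20.7 RPKM, lay just below the lowest 0 h library, at 21.0 RPKM, so the sum differed far less than either gene did.

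**Figure D3:**
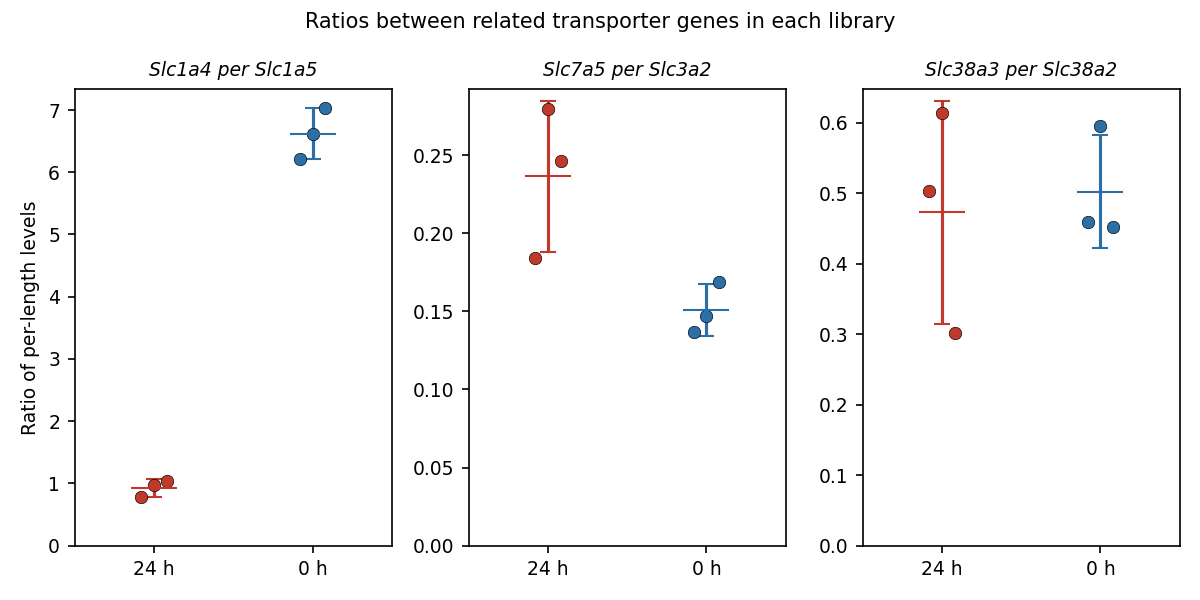
Ratios of per-kilobase levels in each library at 24 h (red) and 0 h (blue), with the mean and SD (n = 3 each), on axes that start at 0. Slc1a4 per Slc1a5 is near 1 at 24 h and above 6 at 0 h, Slc7a5 per Slc3a2 is higher in every 24 h library, and Slc38a3 per Slc38a2 overlaps between the times.

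Slc1a3, the glutamate and aspartate carrier that also marks glial cells of the retina and brain (chromosome 15, 8634124 to 8710807, minus strand), had 53.2, 48.6 and 55.6 CPM in the 24 h libraries, against 133, 159 and 140.2 CPM in the 0 h libraries. It fell by 1.46 ± 0.13 on the log2 scale (adjusted p = 0.000193), the lowest p of the 9 genes. It was the most abundant of the glutamate carriers at both times, with 11.6 to 13.2 RPKM at 24 h and 31.7 to 37.8 RPKM at 0 h. The related carriers Slc1a1, Slc1a2 and Slc1a7 were each under 7 RPKM in every library and were not called (adjusted p = 0.462, 0.460 and 0.737). Of 10 markers of Muller glia and astrocytes, 5 fell and 2 rose, where 13.0% of all genes fell and 15.2% rose. The 10 markers summed to 4454 to 5462 CPM at 24 h and 8581 to 10354 CPM at 0 h. Among them Dkk3 fell, with 1703 ± 141 CPM at 24 h against 4930.0 ± 824 at 0 h, while Glul, glutamine synthetase, averaged 1724 ± 400.2 CPM at 24 h against 1667 ± 156 at 0 h, without a call (SD, n = 3 each, adjusted p = 0.896). The 2 markers that rose were Sox9 and Gfap, each with every 24 h library above every 0 h library, as for 22.9% of all genes. Gfap averaged 134 ± 38.5 CPM at 24 h against 53.7 ± 22.1 at 0 h (SD, n = 3 each, adjusted p = 0.0138). The sum of the 10 markers mostly follows the abundant Dkk3, Apoe and Glul. Apoe averaged 1107 ± 197 CPM at 24 h against 2061 ± 286 at 0 h (SD, n = 3 each, adjusted p = 0.013). Which cells this RNA came from, and the part of glial cells in the fall of Slc1a3, were not tested. A fit with the summed photoreceptor level as a covariate was chosen after seeing the data. In it Slc1a3 fell by 1.46 on the log2 scale (adjusted p = 0.000173) and Slc38a3 by 1.54 (adjusted p = 0.000317). This covariate does not measure glial or other cells, so the fit cannot show their part.

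Slc7a1, the carrier of arginine, lysine and ornithine found in most cell types (chromosome 5, 148327410 to 148399904, minus strand), had 64.2, 87.0 and 71.1 CPM in the 24 h libraries, against 23.1, 31.9 and 35.3 CPM in the 0 h libraries. It rose by 1.30 ± 0.19 on the log2 scale (adjusted p = 0.00165), with 24 h replicate 2 the highest. Its relative Slc7a2, which carries the same amino acids, had 487, 452 and 901 CPM at 24 h, against 1055, 1133 and 1621 CPM at 0 h, and fell (log2 fold change -1.05 ± 0.30, adjusted p = 0.0315). That call was lost on leaving out any single library other than 24 h replicate 3. Slc7a3, the third of these cationic carriers, rose (log2 fold change 1.76 ± 0.39, adjusted p = 0.0109) and was low at both times, with 5.40 ± 0.857 CPM at 24 h and 1.59 ± 0.375 CPM at 0 h (SD, n = 3 each). Slc7a2 was the most abundant of the 3 at both times, with 80.4% to 90.3% of their summed per-kilobase level at 24 h and 96.6% to 97.3% at 0 h, while Slc7a1 held 7.80% to 16.9% at 24 h and 2.32% to 2.97% at 0 h. The sum of the 3 was 71.5 to 127 RPKM at 24 h and 138 to 212 RPKM at 0 h. Slc7a2 and Slc7a3 were looked at side by side with Slc7a1 after their values were seen.

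The rises of Slc1a5 and Slc7a1 stood beside higher leukocyte markers. Of 13 such markers 11 were tested, 6 rose and 2 fell, where 15.2% of all genes rose and 13.0% fell. The list summed to 165 to 300.1 CPM at 24 h and 50.9 to 106 CPM at 0 h. Cd3e, a defining T cell marker, had 1, 0 and 0 counts in the 24 h libraries and none in the 0 h libraries. The leukocyte markers that rose were Csf3r, Itgam, Cd68, Itgb2, S100a8 and S100a9. Each had every 24 h library above every 0 h library, as 22.9% of all genes did. Csf3r, a neutrophil receptor, averaged 37.6 ± 10.7 CPM at 24 h against 1.98 ± 0.499 at 0 h, Itgam 37.3 ± 20.6 against 3.70 ± 3.17, and Cd68 34.4 ± 5.31 against 5.91 ± 2.13 (SD, n = 3 each; adjusted p = 6.2e-05, 0.00479 and 0.000489). S100a8 had 43, 140 and 90 counts at 24 h, against 1, 1 and 2 at 0 h, and S100a9 had 80, 273 and 224 counts at 24 h, against 1, 0 and 0 at 0 h. The markers that fell were Cx3cr1 and Csf1r, of microglia and macrophages. By the mean over all 6 libraries Lyz2 and Csf1r were the most abundant, Lyz2 with 29.5 ± 17.6 CPM at 24 h against 16.3 ± 4.13 at 0 h, without a call (adjusted p = 0.142), and Csf1r with 12.5 ± 5.50 at 24 h against 31.9 ± 13.6 at 0 h (adjusted p = 0.0406). The call of Csf1r was lost on leaving out replicate 1 or 2 of the 24 h libraries or replicate 2 or 3 of the 0 h libraries, and Lyz2 was called higher without 24 h replicate 2. The part of leukocytes in the rise of Slc1a5 and Slc7a1 was not tested.

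The heavy chain and the leucine exchanger gave no call. Slc3a2 (chromosome 19, 8706882 to 8723369, minus strand) had 418, 344 and 461 CPM in the 24 h libraries, against 579.6, 456 and 663 CPM in the 0 h libraries, and the groups overlap by the highest 24 h and the lowest 0 h library. Its log2 fold change was -0.47 ± 0.19, with a 95% interval of -0.92 to -0.03, and it was not called over all genes (adjusted p = 0.103). With the photoreceptor covariate it was called lower (log2 fold change -0.58, adjusted p = 0.0172), and its adjusted p ran from 0.0172 to 0.961 over 17 alternatives. Slc7a5 (chromosome 8, 121881146 to 121907686, minus strand) had 91.4, 114 and 135 CPM at 24 h, against 94.2, 79.6 and 133 CPM at 0 h. The groups overlap over most of their range, and the log2 fold change was 0.15 ± 0.22, with a 95% interval of -0.35 to 0.65 (adjusted p = 0.652). It was -0.0043 without 0 h replicate 2. Slc7a5 overlaps Gm20388 on the opposite strand and Slc1a3 overlaps Gm37310 in GENCODE M21, with 0 shared exonic bases in each case.

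The ratio of the pair was higher in every 24 h library than in any 0 h library. Slc7a5 per Slc3a2, per kilobase, was 0.184, 0.279 and 0.246 in the 24 h libraries, against 0.137, 0.147 and 0.169 in the 0 h libraries. The log2 difference was 0.63, and 0.50 to 0.80 when single libraries were left out (exact permutation p = 0.1, the smallest possible). Over the 4 ratios and shares compared in this way, the Benjamini-Hochberg adjusted exact p was 0.2 for this ratio and for Slc1a4 per Slc1a5, 0.533 for the Slc38a3 share and 0.9 for Slc38a3 per Slc38a2, so none passed. Slc3a2 was far more abundant than Slc7a5 at both times, and other light chains that pair with it were measured beside it.

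The light chain with the highest level was Slc7a8, which carries a wide range of neutral amino acids. It had 130.4 ± 27.9 RPKM at 24 h and 307 ± 69.8 RPKM at 0 h (SD, n = 3 each) and fell by 1.24 ± 0.24 on the log2 scale (adjusted p = 0.00574). Slc7a11, the cystine and glutamate exchanger that feeds glutathione synthesis, averaged 72.1 ± 23.3 RPKM at 24 h against 59.2 ± 13.6 at 0 h, without a call (adjusted p = 0.471). Slc7a6, a carrier of cationic and neutral amino acids, averaged 15.1 ± 1.68 RPKM at 24 h against 12.3 ± 1.78 at 0 h, without a call (adjusted p = 0.197). Slc7a7 was at most 2.07 RPKM in any library (adjusted p = 0.880), and Slc7a10 had 0, 0 and 1 counts at 24 h, against 6, 12 and 13 counts at 0 h, too few to be tested. As a share of the 6 light chains, Slc7a8 was 51.9% ± 3.96 at 24 h and 74.9% ± 1.17 at 0 h, Slc7a11 28.3% ± 3.28 at 24 h and 14.5% ± 2.14 at 0 h, and Slc7a5 13.1% ± 2.87 at 24 h and 7.07% ± 0.616 at 0 h. For each of these 3 shares the libraries of the times did not overlap. The summed light chains per Slc3a2 were 1.73 to 1.96 at 24 h and 2.06 to 2.21 at 0 h.

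Ranked by RPKM, the order of the 9 genes changed little at the top and closed up at the bottom. At 24 h the order was Slc3a2, Slc38a2, Slc7a5, Slc38a3, Slc1a3, Slc38a1, Slc7a1, Slc1a5 and Slc1a4. The libraries of neighbours overlapped at 24 h for Slc7a5 and Slc38a3, for Slc38a1 and Slc7a1, for Slc7a1 and Slc1a5 and for Slc1a5 and Slc1a4, so the last 4 are not separated and lie at 7.72 to 12.1 RPKM. At 0 h the order was Slc3a2, Slc38a2, Slc38a3, Slc1a3, Slc7a5, Slc1a4, Slc38a1, Slc7a1 and Slc1a5, and the libraries overlapped for Slc3a2 and Slc38a2 and for Slc1a3 and Slc7a5. The 0 h means spanned 3.08 RPKM for Slc1a5 to 191 RPKM for Slc3a2, and the 24 h means 9.47 RPKM for Slc1a4 to 138 RPKM for Slc3a2.

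The summed level of the 9 genes was 303, 289 and 341 RPKM in the 24 h libraries, against 511, 515 and 614 RPKM in the 0 h libraries. Slc38a2 held 19.4% ± 1.25 of that sum at 24 h and 31.2% ± 1.05 at 0 h, and Slc3a2 44.2% ± 3.48 at 24 h and 34.9% ± 4.44 at 0 h (SD, n = 3 each). Slc1a5 and Slc7a1 together stayed small beside the genes that fell. They summed to 18.9 to 22.6 RPKM at 24 h and 6.13 to 8.10 RPKM at 0 h, while the 4 that fell summed to 105 to 116 RPKM at 24 h and 274 to 336 RPKM at 0 h.

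**Figure D4:**
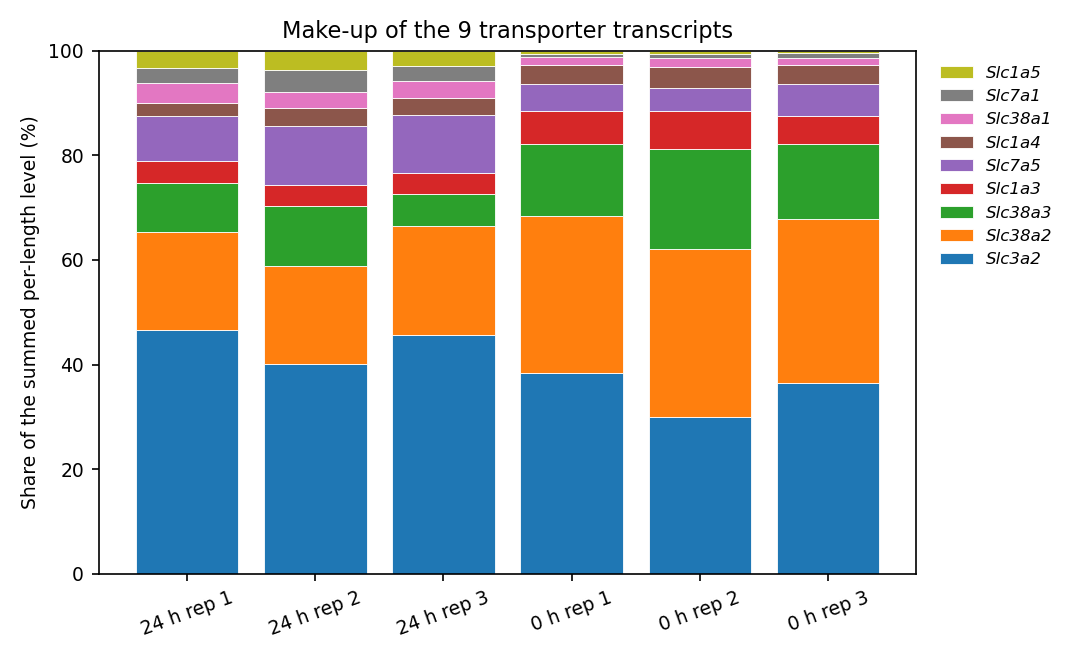
Share (%) of the summed per-kilobase level of the 9 genes held by each gene in each library, 24 h libraries on the left and 0 h libraries on the right. Slc38a2 and Slc38a3 take a smaller part of each 24 h bar, and Slc3a2, Slc7a5, Slc38a1, Slc7a1 and Slc1a5 a larger one.

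RefSeq promoter windows on GRCm38.p6 were held for 5 of the 9 genes, as 6 windows: Slc7a1 (2), Slc1a4, Slc1a3, Slc38a2 and Slc3a2. The 250 bases before the start are shown for Slc7a1, which rose, and for Slc38a2 and Slc1a3, which fell, because they hold the single motif match and the highest and lowest GC content of the 6. Slc7a1 is at chr5:148399905-148400154, Slc38a2 at chr15:96699729-96699978 and Slc1a3 at chr15:8710808-8711057, all on the minus strand and written 5′ to 3′. Capitals mark the 1 match to a searched motif.
Slc7a1: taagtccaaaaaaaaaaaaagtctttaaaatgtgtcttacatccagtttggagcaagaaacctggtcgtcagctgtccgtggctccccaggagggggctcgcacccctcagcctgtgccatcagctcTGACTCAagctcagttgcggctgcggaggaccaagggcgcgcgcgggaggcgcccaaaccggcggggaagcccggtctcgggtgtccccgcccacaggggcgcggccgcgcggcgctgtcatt
Slc38a2: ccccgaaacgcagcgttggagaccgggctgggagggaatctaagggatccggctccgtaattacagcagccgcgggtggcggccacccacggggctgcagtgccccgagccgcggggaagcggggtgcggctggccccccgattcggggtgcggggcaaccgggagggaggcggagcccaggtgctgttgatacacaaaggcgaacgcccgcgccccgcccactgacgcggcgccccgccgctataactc
Slc1a3: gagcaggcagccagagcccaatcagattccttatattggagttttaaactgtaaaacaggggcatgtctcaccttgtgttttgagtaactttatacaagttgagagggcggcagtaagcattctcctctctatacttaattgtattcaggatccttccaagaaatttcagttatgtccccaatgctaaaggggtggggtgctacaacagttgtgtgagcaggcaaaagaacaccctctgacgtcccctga

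GC content was 62.4% in the Slc7a1 window, 72.0% in that of Slc38a2 and 44.8% in that of Slc1a3. Both strands of the 250 bases were searched for TGATGNAA, the composite element bound by ATF4 with C/EBP factors, for TGANTCA, the AP-1 element, and for CACGTG, the E-box. The AP-1 letters stood 123 bases before the start in the Slc7a1 window and in none of the other 5, and they occur in 6.75% of all 32851 windows. The composite element and the E-box were in 0 of the 6 windows, and in 3.45% and 6.02% of all windows. The Slc3a2 window (chr19:8713898-8714147) and the other Slc7a1 window (chr5:148392816-148393065) lie inside the deposited spans of these genes, not before their outermost starts. A match describes letters only, and no match says nothing about elements outside the window, such as the introns.

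Beyond these 9, 31 other plasma membrane carriers of amino acids were listed, of which 19 had enough counts to be tested. Of the 19, 3 rose (Slc6a14, Slc7a3 and Slc43a2) and 4 fell (Slc6a6, Slc6a9, Slc7a2 and Slc7a8), with a median log2 fold change of 0.17. Slc6a6, the taurine carrier and the most abundant of the list, had 1951, 1499.9 and 2668 CPM in the 24 h libraries, against 5622, 6094 and 6084 CPM in the 0 h libraries, and fell by 1.54 ± 0.25 on the log2 scale (adjusted p = 0.00287). Slc6a9, the glycine carrier, fell by 1.57 ± 0.28 (adjusted p = 0.00422). Slc43a2, a carrier of leucine and phenylalanine that needs no sodium, had 63.6, 78.3 and 109.9 CPM at 24 h, against 36.6, 28.4 and 40.6 CPM at 0 h, and rose by 1.26 ± 0.22 on the log2 scale (adjusted p = 0.00401). These counts, 3 and 4 of 19, lie near the 15.2% and 13.0% called over all genes. Slc6a14 was low, with 44, 36 and 22 counts at 24 h, against 0, 4 and 11 counts at 0 h, and lost its call on leaving out replicate 1 or 2 of either time.

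Of 19 carriers on lysosomes, mitochondria and other inner membranes, 2 rose and 4 fell (median log2 fold change -0.24), beside 15.2% and 13.0% of all genes. Slc15a3, a lysosomal carrier of histidine and small peptides found in immune cells, rose by 2.52 ± 0.44 on the log2 scale (adjusted p = 0.0038), Slc36a1, a lysosomal proton-coupled carrier, by 0.65 ± 0.16 (adjusted p = 0.0191), and Slc25a29, a mitochondrial carrier of basic amino acids, fell by 1.46 ± 0.28 (adjusted p = 0.00545). Leaving out 0 h replicate 2 or 0 h replicate 3 left 1 that fell, leaving out any single 24 h library left 2, and leaving out 0 h replicate 3 left 1 that rose. Slc36a1 was not called without 24 h replicate 3 or 0 h replicate 3.

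Genes of charging amino acids onto tRNA moved one way. Of 23 cytosolic aminoacyl-tRNA synthetases and their partners 17 rose and 0 fell, with a median log2 fold change of 0.70, where 15.2% of all genes rose and 13.0% fell. Rars rose by 1.11 ± 0.13 on the log2 scale (adjusted p = 0.00055), Vars by 0.98 ± 0.12 (adjusted p = 0.000757) and Aars by 1.23 ± 0.16 (adjusted p = 0.000969), the enzymes for arginine, valine and alanine. Against a 1.5-fold change 6 of them were called higher. Of 25 genes of the ATF4 pathway other than transporters 24 were tested, 13 rose and 2 fell, with a median log2 fold change of 0.65. Atf4 itself had 187, 233 and 147 CPM in the 24 h libraries, against 81.8, 74.7 and 67.5 CPM in the 0 h libraries, and rose by 1.34 ± 0.19 on the log2 scale (adjusted p = 0.00131). Asns, which makes asparagine, rose by 2.94 ± 0.23 (adjusted p = 9.7e-05), Mthfd2, a mitochondrial folate enzyme, by 2.04 ± 0.20 (adjusted p = 0.000277) and Cebpb, a C/EBP factor, by 2.49 ± 0.33 (adjusted p = 0.00106). The members that fell, Phgdh and Psat1, make serine. Leaving out 0 h replicate 2 left 6 that rose, and leaving out 0 h replicate 1 or 0 h replicate 3 left 8. Without 0 h replicate 1 only 1 fell, and against a 1.5-fold change 7 rose and 0 fell. At 24 h against 0 h Slc38a2, Slc38a3, Slc1a3 and Slc1a4 fell, while Atf4, Asns and 17 of the tRNA synthetases rose. Slc1a5 and Slc7a1 rose too, and Slc38a1, Slc7a5 and Slc3a2 were not called. The part of ATF4 in these changes was not tested.

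**Figure D5:**
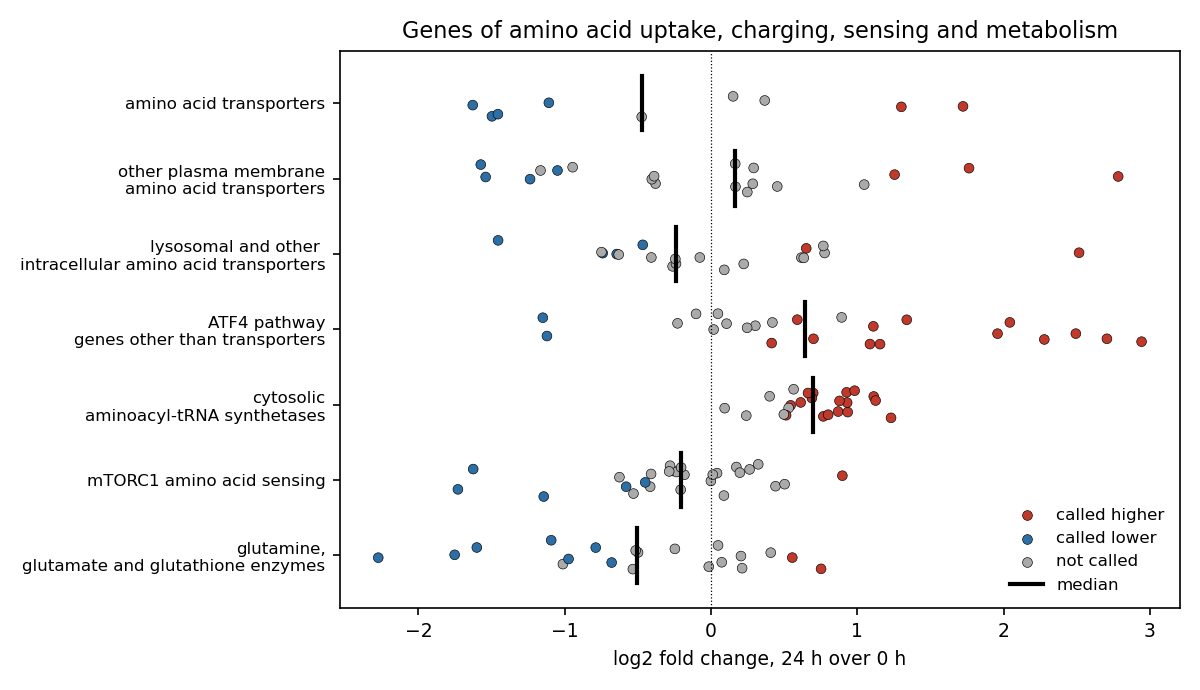
The log2 fold change (24 h over 0 h) of each tested gene in 7 lists, coloured by call, with a bar at the list's median. The tRNA synthetases all lie to the right of 0, with 17 of 23 called higher, whereas the transporter lists spread to both sides.

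Of 28 genes of amino acid sensing by mTORC1, the kinase complex that couples amino acids to growth, 27 were found and tested, 1 rose and 5 fell (median log2 fold change -0.21), 6 of 27 in all, beside 28.2% of all genes. Sesn1 and Sesn3 encode sestrins, which restrain mTORC1. They fell by 1.73 ± 0.22 (adjusted p = 0.000828) and 1.63 ± 0.16 (adjusted p = 0.000237) on the log2 scale. Mtor itself also fell (log2 fold change -1.14 ± 0.27, adjusted p = 0.0143). So did Mlst8 (-0.58 ± 0.14, adjusted p = 0.0163) and Tsc1 (-0.45 ± 0.12, adjusted p = 0.022). Fnip2, a partner of folliculin, rose by 0.90 ± 0.21 (adjusted p = 0.0123). The activity of mTORC1 was not measured. Leaving out 0 h replicate 1 or 0 h replicate 3 left 2 that fell, leaving out 24 h replicate 1 or 0 h replicate 2 left 3, and leaving out 0 h replicate 1 gave 2 that rose. Of 20 enzymes of glutamine, glutamate and glutathione 2 rose and 7 fell (median log2 fold change -0.51), beside 15.2% and 13.0% of all genes. Ggt1, which breaks down extracellular glutathione, fell by 1.75 ± 0.27 (adjusted p = 0.00188), Oplah, which recycles glutamate from oxoproline, 3.03-fold (adjusted p = 0.00233) and Gss, glutathione synthetase, by 0.97 ± 0.18 (adjusted p = 0.00503). Leaving out 24 h replicate 1 left 0 that rose, and leaving out 24 h replicate 3 or any single 0 h library left 1.

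The falls of Slc38a2, Slc38a3, Slc1a3 and Slc1a4 stood beside falls of lens genes. Of 8 lens epithelial markers 5 fell and 0 rose, where 13.0% of all genes fell and 15.2% rose. The 8 markers summed to 1085 to 1572 CPM at 24 h and 1936 to 2859.7 CPM at 0 h. All 9 lens fiber markers fell, and they summed to 15232 to 17770 CPM at 24 h and 33004 to 54499 CPM at 0 h. The epithelial markers that fell were Npnt 5.10-fold, Foxe3 2.94-fold, Fgfr3 2.92-fold, Maf 2.33-fold and Six3 1.35-fold (adjusted p = 0.00127, 0.00145, 0.000844, 0.00388 and 0.0422), and the call of Six3 was lost on leaving out any single library other than 24 h replicate 3. By the mean over all 6 libraries Pax6 and Cdh1 were the most abundant and were not called, Pax6 at 324 ± 67.5 CPM at 24 h and 455 ± 53.7 CPM at 0 h (adjusted p = 0.0946), and Cdh1 at 363 ± 54.6 CPM at 24 h and 380.1 ± 73.6 CPM at 0 h (adjusted p = 0.833). Crybb2 and Crygs, the most abundant fiber markers, had 10148 ± 1142 and 2037 ± 164 CPM at 24 h, against 23527 ± 6810.0 and 6728 ± 2519.5 CPM at 0 h (SD, n = 3 each). Crybb2 was not called without 24 h replicate 1 or 0 h replicate 1. The part of changed cell make-up in the falls was not tested, and no marker of either lens list was at 0 in all libraries of a time.

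Of 10 pigment epithelium markers 3 rose and 4 fell, where 15.2% of all genes rose and 13.0% fell. The 10 markers summed to 123 to 1175 CPM at 24 h and 223 to 396 CPM at 0 h. For the 4 that fell every 24 h library lay below every 0 h library, as for 21.8% of all genes. Rgr, Rpe65 and Lrat, of the retinal pigment epithelium, had 17, 16 and 19 counts, 14, 9 and 3 counts, and 2, 0 and 3 counts at 24 h, against 394, 884 and 395 counts, 132, 222 and 123 counts, and 72, 156 and 88 counts at 0 h. Ttr, also of that layer, fell 10.5-fold (adjusted p = 0.000106), and the adjusted p of Rgr was 7.7e-05, of Rpe65 0.000741 and of Lrat 0.000509. The 3 that rose, the pigment cell genes Dct, Pmel and Mlana, had overlapping libraries, and each lost its call without 24 h replicate 1, 0 h replicate 1 or 0 h replicate 3, Pmel and Mlana also without 24 h replicate 3. By the mean over all 6 libraries Dct (269 ± 213 CPM at 24 h, 47.3 ± 25.2 CPM at 0 h) and Tyrp1 (174 ± 153 CPM at 24 h, 71.9 ± 13.1 CPM at 0 h) were the most abundant, and Tyrp1, otherwise uncalled, was called higher without 24 h replicate 2. The part of pigment epithelium in the falls of the transporter genes was not tested. Gnat1, a photoreceptor marker, had 702 ± 472 CPM at 24 h, against 893 ± 488 CPM at 0 h (SD, n = 3 each). Of 8 endothelial markers 6 were tested and 2 rose, with sums of 29.2 to 52.3 CPM at 24 h and 18.1 to 47.6 CPM at 0 h, and the 2 that rose were Cdh5, with 8.29 ± 4.47 CPM at 24 h and 0.623 ± 0.415 CPM at 0 h (adjusted p = 0.00253), and Pecam1, with 5.62 ± 1.19 CPM at 24 h and 1.16 ± 0.879 CPM at 0 h (adjusted p = 0.0197). The call of Pecam1 was lost without 24 h replicate 1 or 0 h replicate 1. By the mean over all 6 libraries Kdr and Vwf were the most abundant and were not called (adjusted p = 0.145 and 0.837), though Kdr was called lower without 0 h replicate 3. Of 8 fibroblast and smooth muscle markers 6 were tested, 3 rose and 1 fell, with sums of 97.9 to 280.0 CPM at 24 h and 126 to 158.5 CPM at 0 h, Pdgfrb falling and Col1a1, Col3a1 and Des rising. Col1a1 averaged 60.6 ± 31.9 CPM at 24 h against 3.95 ± 1.62 at 0 h, with no overlap (adjusted p = 0.000907), while Col3a1 and Des lost their call without 24 h replicate 3 and without some 0 h libraries. Of 5 erythrocyte markers 1, Alas2, was tested and rose, and Hba-a1, Hba-a2 and Hbb-bt had 0 counts in all libraries, Hbb-bs in the 0 h libraries. The deposited spans of Hba-a1 and Hba-a2 are nearly the same, so their 0 counts do not by themselves show that the RNA was absent.

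For each of the 9 genes the gene with the most similar profile over the 6 libraries was looked up among 9698 tested genes with a mean of at least 10 CPM, by Pearson's r of log2 CPM. The libraries fall into 2 times, so r is a description over 6 points that share that difference. The nearest gene to Slc1a5 was Plat, the tissue plasminogen activator (r = 0.9999), to Slc1a3 Arrb1, a beta-arrestin (r = 0.9993), to Slc3a2 Timp2, a metalloproteinase inhibitor (r = 0.998), and to Slc38a1 Sufu, a regulator of hedgehog signalling (r = 0.997). For Slc38a2 it was Tmem132b (r = 0.997), for Slc1a4 Ddo, D-aspartate oxidase (r = 0.996), for Slc38a3 Tnrc6b, which acts in silencing by microRNAs (r = 0.995), for Slc7a1 Mapk6, a MAP kinase (r = 0.994), and for Slc7a5 Wrb (r = 0.985). Genes with r over 0.95 numbered 12 for Slc7a5 and 729 for Slc1a5, the fewest and the most of the 9. Among the 9 themselves, Slc38a2 and Slc1a3 were each other's nearest, as were Slc1a5 and Slc7a1.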

How the data were processed

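RNA-seq of 6 libraries (3 at 24 h, 3 at 0 h) was used. Each deposited table gives, per gene, raw counts, RPKM, coordinates and exonic length. Per the submitters' processing notes, tools named include Trim Galore 0.4.4, TopHat2 2.1.0, SAMtools 1.4, HTSeq 0.6.1p1 and edgeR 3.16.5, with genome build mm10. Library kits of the TruSeq line are named in the labels once without and once with strand marking, and neither strand handling nor the annotation was found in the sources used here, so reads of overlapping genes cannot be told apart by strand. The RPKM values deposited by the authors equal counts per length and library total within rounding, and were not tested. The deposited counts were fitted with edgeR 4.0.16 (R 4.3.3): TMM scaling, filterByExpr (13956 genes kept), quasi-likelihood F test, Benjamini-Hochberg threshold 0.05. SE is the log2 fold change over the square root of F. The common coefficient of biological variation was 25.1%. A count of 3 in a library equals 0.276 to 0.372 CPM, for counting error only. Ratios were compared with exact permutation tests in scipy 1.17.1, whose smallest p is 0.1. The edgeR test, not the permutation tests, was checked on simulated counts that had the same dispersion for all genes. Alternatives included RLE scaling, library totals only, other filters, DESeq2 1.42.0, limma-voom 3.58.1, a 1.5-fold threshold, a replicate block, and leaving out each library. Leaving out Rn45s and a photoreceptor covariate were added after seeing the data.

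The genes and lists were chosen with earlier results of these data known. Named genes were the 9 transporters, the 3 lowest p in each pathway list, the light chains of Slc3a2, the most similar gene to each transporter, and the 2 markers of each cell type list with the highest mean CPM over all 6 libraries. A gene that this rule selects is not reported here. Genes named beyond these were chosen after their values were seen.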

Additional observations from a re-analysis of the deposited data

How the results depend on the processing

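Over 17 alternatives the 6 called transporters kept direction and call, and the number that rose or fell was 2 to 3 and 4 to 4 without single libraries. With the replicate block 5 fell, Slc3a2 included (adjusted p = 0.037), and over all genes 2315 rose and 2174 fell. The numbers were not taken as pairing, since same-numbered deviations correlated at 0.0918, 0.224 and 0.412 and 24 h replicate 1 correlated best with 0 h replicate 2 (0.179). Library totals only moved the median of all genes by 0.08 (log2), and 61.7% of calls were then higher, against 53.9%.

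Against a 1.5-fold change 1060 genes rose and 629 fell. In that test the intracellular carriers gave 1 higher and 1 lower, the ATF4 genes 7 and 0, the tRNA synthetases 6 higher, the mTORC1 genes 0 and 2, and the glutamine enzymes 0 and 3. With library totals only, 1 intracellular carrier fell, and 2 mTORC1 genes rose and 3 fell. Without crystallin genes 2 intracellular carriers fell and 2 mTORC1 genes rose, and without Rn45s 2 mTORC1 genes rose. The causes were not tested.

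Without single libraries, 1551 to 1897 genes rose and 1041 to 1648 fell, the fewest without 0 h replicate 2 and 0 h replicate 3. The ranges for higher and lower were 2 to 3 and 3 to 5 for other plasma membrane carriers, 1 to 2 and 1 to 3 for intracellular carriers, and 6 to 12 and 1 to 2 for ATF4 genes. They were 12 to 16 and 0 for tRNA synthetases, 1 to 2 and 2 to 5 for mTORC1 genes, and 0 to 2 and 5 to 8 for glutamine enzymes. The log2 difference of Slc7a5 per Slc3a2 was 0.50 to 0.80, of Slc38a3 per Slc38a2 -0.36 to 0.16, of Slc1a4 per Slc1a5 -2.93 to -2.72, and the Slc38a3 share differed by -7.20 to -0.30 points.

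Of 1494 values for 88 of the named genes, 1380 kept direction and call, 79 lost the call, 20 gained it and 15 changed sign. The genes that changed sign were uncalled in the main test, and their ranges without single libraries were -0.0043 to 0.41 for Slc7a5, -0.21 to 0.090 for Cdh1 (0.077 without 24 h replicate 1), -0.080 to 0.22 for Glul, and -0.97 to 0.11 for Gnat1 (0.056 without 24 h replicate 3). They were -0.23 to 0.14 for Vwf, -0.38 to 0.61 for Slc7a7 (-0.17 without 0 h replicate 1), -0.081 to 0.82 for Slc1a7 (-0.028 without 0 h replicate 3) and -0.013 to 0.39 for Wrb. With library totals only Cdh1 was at 0.030, and with the photoreceptor covariate Gnat1 was at 0.085 and Slc7a7 at -0.35.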
